A study of Caenorhabditis elegans with 2 samples.

Results

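The genes described here are 6 fatty acid oxidation genes of Caenorhabditis elegans, acs-2, cpt-1, cpt-2, acdh-1, acdh-2 and hacd-1, out of 19973 protein-coding genes on the nuclear chromosomes. They were chosen by name, with earlier results of these data known. Binding of the transcription factor HLH-30 was read at each of them. Chromatin was taken from whole L4 hermaphrodites of strain OP433 (unc-119(tm4063) III; wgIs433), whose transgene adds GFP and FLAG to the C-terminal end of HLH-30, and was precipitated with an antibody against GFP before sequencing (ChIP-seq). The series holds 1 group of 2 biological replicates from separate biosamples of this single strain, with no other condition, and the labels describe no fasting. Whether an untagged copy of hlh-30 is also present is not given in the sources used here. Because whole worms were used, binding in a few cells and weak binding in many cannot be told apart. A gene was given every peak summit inside it or up to 5 kb upstream of its annotated 5′ end.

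Fatty acid oxidation breaks down fats for energy in mitochondria. An acyl-CoA synthetase first joins the fatty acid to coenzyme A, and carnitine palmitoyltransferases then carry it across the mitochondrial membranes. A repeated cycle follows, in which an acyl-CoA dehydrogenase, an enoyl-CoA hydratase, a 3-hydroxyacyl-CoA dehydrogenase and a thiolase shorten the chain. HLH-30 is the worm counterpart of mammalian TFEB and is known to act in the fasting response and in fat breakdown through lysosomes. It belongs to the basic helix-loop-helix factors, which recognise E-boxes, short sites of the form CANNTG.

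The authors' thresholded list held 7168 peaks with signal values from 31.9 to 1388 and a median of 61.8. The signal value is the authors' own measure of how strong a peak is. Its scale is unknown. Ranks are within a list, whereas a mean, an SD or a fold between replicates sets values of the 2 replicate lists side by side. Depth is unknown, since the lists hold no read counts. Of the thresholded peaks, 7118 overlapped an entry of both replicate lists. Over these the median log2 ratio of replicate 1 to replicate 2 was 0.0040, and 90.5% had replicate values within 2-fold of each other. Whether the authors put both lists on 1 scale is unknown.

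Of the 6 genes, 4 had at least 1 thresholded summit, against 37.8% of all protein-coding genes under the same rule. They were acs-2 with 2 summits, cpt-1 with 3, cpt-2 with 1 and hacd-1 with 2, which makes 8 summits in all. Both acyl-CoA dehydrogenase genes, acdh-1 and acdh-2, had none. All 8 summits lay upstream of the gene they were given to and between annotated genes, and none lay inside a member. The share of all thresholded summits that lie between genes is not given here, so this place cannot be called particular to these genes. The sequences under 7 of the 8 are shown first, because the sites differ in whether they hold CACGTG or CACATG, the E-box forms searched.

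Each sequence below spans 50 bp on each side of a summit, read 5′ to 3′ on the strand of the gene, from the RefSeq copy of WBcel235, the assembly also named ce11. Capitals mark the E-box forms CACGTG and CACATG and the hexamer TGATAA. The last 2 read CATGTG and, respectively, TTATCA where they lie on the other strand.
acs-2, 706 bp upstream (chrV:15566638-15566738, plus strand): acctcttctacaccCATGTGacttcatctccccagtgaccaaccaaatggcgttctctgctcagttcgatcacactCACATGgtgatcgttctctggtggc
cpt-1, 3900 bp upstream (chrII:12800302-12800402, minus strand): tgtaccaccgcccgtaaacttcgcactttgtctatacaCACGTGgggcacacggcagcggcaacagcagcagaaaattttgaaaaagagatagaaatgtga
cpt-1, 1200 bp upstream (chrII:12797602-12797702, minus strand): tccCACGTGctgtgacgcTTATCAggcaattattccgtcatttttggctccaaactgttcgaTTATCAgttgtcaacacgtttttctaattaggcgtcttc
hacd-1, 3578 bp upstream (chrV:1456741-1456841, plus strand): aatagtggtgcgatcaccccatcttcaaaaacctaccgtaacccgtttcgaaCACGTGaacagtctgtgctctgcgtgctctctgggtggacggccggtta
cpt-1, 2503 bp upstream (chrII:12798905-12799005, minus strand): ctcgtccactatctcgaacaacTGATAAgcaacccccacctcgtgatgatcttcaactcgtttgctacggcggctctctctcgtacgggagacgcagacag
hacd-1, 710 bp upstream (chrV:1459609-1459709, plus strand): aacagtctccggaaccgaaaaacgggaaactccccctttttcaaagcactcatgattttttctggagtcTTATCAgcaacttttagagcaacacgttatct
cpt-2, 236 bp upstream (chrIV:11179359-11179459, plus strand): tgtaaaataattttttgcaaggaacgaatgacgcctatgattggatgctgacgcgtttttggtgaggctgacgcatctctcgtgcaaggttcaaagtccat

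The first 4 sequences hold an E-box of a searched form and the last 3 hold none. CACGTG or CACATG, on either strand, was thus present within 50 bp of 4 of the 8 member summits, against 25.3% of all thresholded summits. Within 25 bp it was present at 2 of the 8, against 14.4% of all. The eighth summit, 3217 bp upstream of acs-2, had neither form and no TGATAA. At acs-2 the window held 2 copies of CACATG in opposite orientation, one 31 bp before the summit and the other 26 bp after it, with 62 bp between their first bases. At least 2 copies of CACATG were present at 1.79% of all thresholded summits. CACGTG was 7 bp from the summit that lay 3900 bp upstream of cpt-1 and 42 bp from the one at 1200 bp. At hacd-1 it was 2 bp from the summit at 3578 bp. TGATAA, the core of the site of GATA factors such as the intestinal ELT-2, was present at 3 of the 8 summits, against 15.1% of all. These were the summits 1200 and 2503 bp upstream of cpt-1 and 710 bp upstream of hacd-1. In the sequences shown, no marked copy of CACGTG or CACATG overlaps a marked TGATAA. A match in a window is not a measured contact.

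The gene acs-2 (WBGene00009221, chromosome V, 15567394 to 15569897, plus strand) encodes the acyl-CoA synthetase that activates fatty acids for mitochondrial oxidation and is widely used as a marker of the fasting response. Its main summit, 706 bp upstream, had the highest signal value of the 8 member summits, 301, which ranked 211 of 7168. The peak spanned 15566544 to 15566845. Replicate 1 gave 154 and replicate 2 gave 148, or 151 ± 4.36 (SD, n = 2). Both values were close together, with a ratio of 1.04, and their ranks within the replicate lists were 209 and 220. The summits of the replicate peaks lay 11 bp and 6 bp from the thresholded one. No 5′ end of another protein-coding gene was nearer. The 5 kb windows of the genes downstream of acs-2, lsm-5 and fbxa-95, also reach this summit.

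A second acs-2 summit lay 3217 bp upstream (15564002 to 15564351), with a signal value of 49.2 and rank 4711. It gave 16.9 in replicate 1 and 32.2 in replicate 2, or 24.5 ± 10.8 (SD, n = 2). The replicates differed 1.90-fold here, with replicate 2 higher. The pooled list, which also holds entries below the threshold, had 4 more entries in the window of acs-2. The strongest, 2659 bp upstream, had a pooled signal of 26.3 and fell below the lowest thresholded value of 31.9. Its replicate values of 14.4 and 14.9 were nearly equal. A weaker entry with a pooled signal of 11.9 lay in a coding exon 92 bp inside the gene, and a CACGTG was 40 bp from its summit. The upstream space of acs-2 runs 8246 bp to the next protein-coding gene, acr-18, and the 2 summits above were the only thresholded ones in it.

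**Figure D1:**
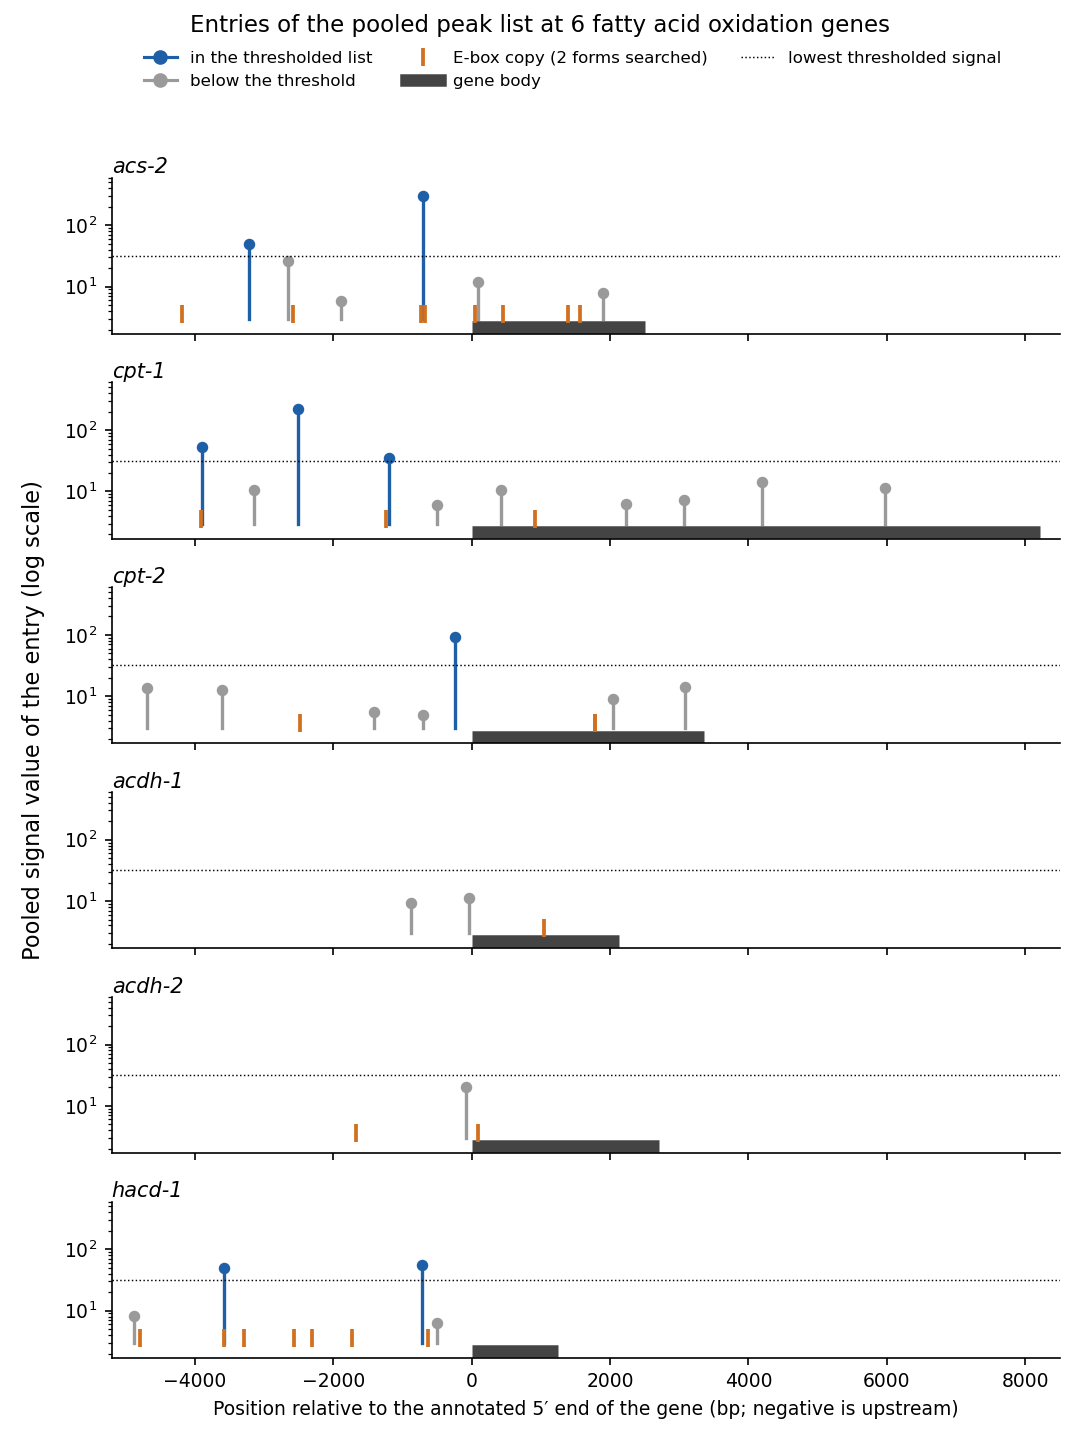
Entries of the pooled peak list in the window of each of the 6 genes, by distance from the annotated 5′ end (bp, negative is upstream), with the pooled signal value on a log axis. Blue entries are in the thresholded list, grey ones are below its lowest signal of 31.9 (dotted line), orange ticks are copies of CACGTG or CACATG and the dark bar is the gene. All 8 blue entries are upstream of the gene bodies, and acdh-1 and acdh-2 have grey entries only.

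The gene cpt-1 (WBGene00012907, chromosome II, 12788244 to 12796452, minus strand) encodes a carnitine palmitoyltransferase of the kind that loads fatty acids onto carnitine at the outer mitochondrial membrane. Its 3 summits stood 1200, 2503 and 3900 bp upstream, in the 3967 bp that separate it from Y46G5A.18. At least 3 thresholded summits were found at 5.36% of all protein-coding genes. The middle summit was the strongest, with a signal value of 218 and rank 435 (12798839 to 12799090). Replicate 1 gave 127 and replicate 2 gave 93.0, or 110 ± 23.8 (SD, n = 2). It held neither CACGTG nor CACATG within 50 bp, and its window was 54.5% G and C, above 88.9% of all thresholded summits.

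The outer cpt-1 summits were weaker and both held CACGTG. The summit at 3900 bp (12800177 to 12800526) had a signal value of 52.6, with 27.6 in replicate 1 and 23.7 in replicate 2, or 25.7 ± 2.77 (SD, n = 2). Replicate summits lay within 1 bp of it. The summit at 1200 bp (12797477 to 12797826) had a signal value of 35.5, close to the lowest thresholded value, and ranked 6509. Replicate 1 gave 9.94 and replicate 2 gave 25.2, or 17.6 ± 10.8 (SD, n = 2). This 2.54-fold difference was the widest among the member summits. Of all thresholded peaks matched in both replicates, 2.14% had a lower ratio of replicate 1 to replicate 2. In replicate 1 the site ranked 11213, outside the strongest 7168. Inside the gene body, 5 pooled entries were found, and no pooled entry below the threshold in the cpt-1 window exceeded 14.3.

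The gene cpt-2 (WBGene00011122, chromosome IV, 11179645 to 11183008, plus strand) encodes a carnitine palmitoyltransferase of the kind that returns the acyl group to coenzyme A inside the mitochondrion. Its single summit lay 236 bp upstream, the shortest distance among the member summits. The signal value was 90.8 and the rank 2152. Replicate 1 gave 35.3 and replicate 2 gave 61.2, or 48.3 ± 18.3 (SD, n = 2), a 1.73-fold difference. The replicate summits lay 26 bp from it on either side. The thresholded peak was narrow, at 104 bp (11179363 to 11179466), a width that 2.47% of thresholded peaks did not exceed. The entries of the replicate lists were wider, from 11179213 to 11179552 in replicate 1 and from 11179257 to 11179612 in replicate 2. The narrow width was thus not seen in either replicate alone. The thresholded summit was also isolated. The next thresholded summit was 29630 bp away, whereas the median distance over all summits was 2246 bp and 97.3% of summits had a closer neighbour. The 5 kb windows of C08F8.9, prx-14 and nuaf-3 reach the same summit, and cpt-2 had the nearest 5′ end of a protein-coding gene.

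The gene hacd-1 (WBGene00019978, chromosome V, 1460369 to 1461613, plus strand) encodes a predicted 3-hydroxyacyl-CoA dehydrogenase, the enzyme of the third step of the cycle. Its nearer summit, 710 bp upstream (1459484 to 1459833), had a signal value of 55.6 and rank 4085. Replicate 1 gave 33.6 and replicate 2 gave 19.7, or 26.7 ± 9.85 (SD, n = 2). The farther summit, 3578 bp upstream (1456616 to 1456965), had a signal value of 49.2 and rank 4703. Here replicate 1 gave 15.7 and replicate 2 gave 29.7, or 22.7 ± 9.9 (SD, n = 2). The replicates thus ordered the 2 hacd-1 summits in opposite ways. The farther summit held the CACGTG, but the nearest 5′ end of a protein-coding gene, 1729 bp away, was that of chil-14.

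The gene acdh-2 (WBGene00015894, chromosome II, 5544778 to 5547492, minus strand) encodes a predicted short-chain acyl-CoA dehydrogenase. The pooled list held 1 entry in its window, 79 bp upstream, with a signal of 20.4 and rank 10190. Replicate 1 gave 8.37 and replicate 2 gave 7.94, or 8.16 ± 0.303 (SD, n = 2). Both replicates placed an entry there, and both values were lower than those of every thresholded member summit. The thresholded summit closest to its 5′ end was 3195 bp away on the downstream side, with a signal value of 48.3.

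The gene acdh-1 (WBGene00016943, chromosome I, 6497436 to 6499560, plus strand) encodes the acyl-CoA dehydrogenase that opens the propionate shunt, and its promoter is used as a reporter of diet and vitamin B12 state. The thresholded summit closest to its 5′ end was 34703 bp away, farther than for 90.3% of protein-coding genes, whose median was 6428 bp. The pooled list held 2 entries in the window, both upstream. The entry 30 bp upstream had a pooled signal of 11.2, with 8.38 in replicate 1 and no overlapping entry in replicate 2. The entry 875 bp upstream had 9.16, with 4.4 and 2.48 in the replicates. Replicate 1 alone also had an entry 3463 bp upstream with a signal of 32.7 and rank 3468, in the 5′ UTR of mdt-18. Neither the pooled list nor replicate 2 had an entry overlapping it. Such entries were uncommon: of the strongest 7168 of replicate 1, 165 (2.30%) overlapped no pooled entry, and in replicate 2 there were 156 (2.18%).

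**Figure D2:**
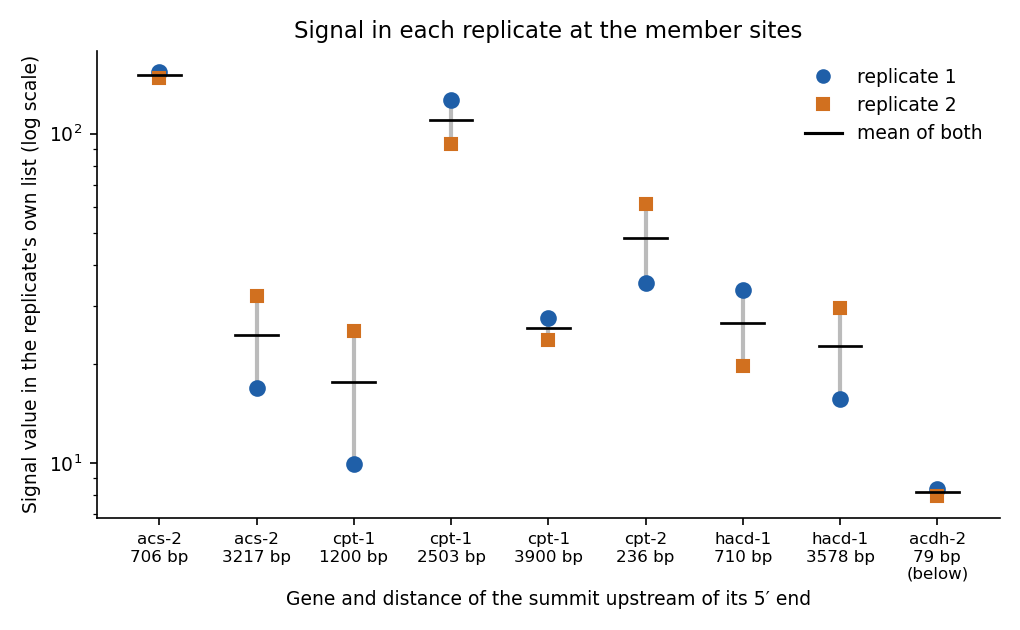
Signal values of replicate 1 (circles) and replicate 2 (squares), each from its own list, on a log axis for the 8 thresholded member summits and for the acdh-2 entry below the threshold. Black bars are the means of both. Values were closest at the main acs-2 summit (154 and 148) and farthest apart at the cpt-1 summit at 1200 bp (9.94 and 25.2).

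Ordered by their strongest summit in the pooled list, the genes ran acs-2, cpt-1, cpt-2 and hacd-1, followed by acdh-2 and acdh-1 below the threshold. In the list of replicate 1 the acdh genes stood the other way round. There the entry at mdt-18 gave acdh-1 a value of 32.7, against 8.37 for acdh-2. The order of the genes also rests on the 5 kb window. With 2 kb the strongest cpt-1 summit was the one of 35.5, below those of cpt-2 (90.8) and hacd-1 (55.6). At the 4 strongest summits, replicate 1 gave 154, 127, 35.3 and 33.6 in this order, and replicate 2 gave 148, 93.0, 61.2 and 19.7. Each list thus ordered them alike, and the replicate values of neighbours did not overlap. The gap between the nearest values was smaller than the SD of cpt-1 (23.8) for acs-2 and cpt-1, and smaller than the SD of either gene for cpt-2 and hacd-1. Between cpt-1 and cpt-2 it was larger than both SDs. With 2 values a site, no test was made. Replicate 1 was higher at 4 of the 8 summits and replicate 2 at the other 4. Among 7546 genes with a thresholded summit, acs-2 ranked 339 and cpt-1 ranked 724 by strongest signal, whereas cpt-2 ranked 3046 and hacd-1 ranked 5163. Genes that share a summit have equal values and were ordered by name, which affects the exact ranks of acs-2 and cpt-2. The median of the strongest signals was 76.4, so hacd-1 stood below it and the other 3 above it. The genes next in this order were alh-8 above acs-2, at 301, and tag-325 and F40F11.3 around cpt-1, both at 218. Those around hacd-1 were ghi-1 and F42D1.4, both at 55.6, and those around cpt-2, C08F8.9 and nuaf-3, share its summit. With 1 group, likeness was measured on signal value alone.

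The windows of the 6 genes held 24 copies of CACGTG or CACATG, of which 5 lay within 50 bp of a thresholded summit. Across the genome this was so for 4.66% of 17729 CACGTG copies and 3.55% of 34530 CACATG copies. These 5 copies were 2 at acs-2, 2 at cpt-1 and 1 at hacd-1. The other 19 were spread over all 6 genes. At hacd-1, 6 of 7 copies had no thresholded summit within 50 bp, and 1 of them was 76 bp from the nearer summit. At acs-2, 4 of 8 copies lay in coding exons, away from both thresholded summits of its window. A thresholded summit outside the window, with a signal value of 57.5, was 965 bp from the exon copy at 15568958. The 3 copies of cpt-2 were over 2000 bp from its summit. The acdh-2 window held 1 CACGTG, in a coding exon 164 bp from the summit of its pooled entry, and 1 CACATG. The acdh-1 window held 1 CACATG, in a coding exon.

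The other genes of fatty acid breakdown were read in the same way, in lists by enzymatic step. These lists too were chosen with earlier results of these data known. Of 78 listed genes found in the annotation, 52 (66.7%) had a thresholded summit, and without the 6 members the count was 48 of 72 (66.7%). The share of all protein-coding genes was 37.8%, beside which the counts by step below can be read. The median window was 7580.5 bp for the listed genes and 7027 bp for all genes, and many summits also lay in the windows of neighbours. These shares are descriptions, and no list was tested against other genes. Of the 78 genes, 18 (23.1%) had a summit with CACGTG or CACATG within 50 bp, against 11.8% of all protein-coding genes. The 18 included acs-2, cpt-1 and hacd-1. Only genes with a summit can count here. Among those, it was 18 of 52 listed genes, beside 2351 of 7546 over all protein-coding genes. The contrast of 23.1% with 11.8% thus also holds the difference in the share of genes with a summit.

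Acyl-CoA synthetase genes had a summit at 15 of 21. After acs-2 the strongest were acs-11, with a signal value of 181 and replicate values of 91.3 and 89.4, and acs-17, with 150 and replicate values of 67.8 and 83.0. The acs-11 summit, shared with eas-1, held both E-box forms, and the acs-17 summit, in an intron of that gene, held CACGTG. Genes of the carnitine shuttle had one at 5 of 7. Beyond cpt-1 and cpt-2, the strongest was cpt-4 at 73.6 (35.3 and 40.1 in the replicates), 4690 bp upstream and also in the windows of swt-7 and K11D12.13. The paralogues cpt-3 and cpt-5 had none.

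Acyl-CoA dehydrogenase genes had a summit at 8 of 14, where acdh-7 and acdh-10 were counted through the same summit. The strongest were acdh-5 at 211 (126 and 87.8 in the replicates), 4610 bp upstream and shared with pqn-21 and cye-1, ivd-1 at 160 (74.2 and 84.3) and acdh-9 at 146 (60.4 and 89.8). Thus acdh-1 and acdh-2 were among 6 genes of this family without a thresholded summit, together with acdh-3, acdh-4, acdh-8 and acdh-13. The gene ivd-1 encodes isovaleryl-CoA dehydrogenase of leucine breakdown, and its summit, shared with C02B10.4, held CACGTG. Enoyl-CoA hydratase and hydroxyacyl-CoA dehydrogenase genes had one at 7 of 12. In this list hacd-1 followed ech-1.2 at 97.1 and ech-2 at 75.5, whose summits lay in the windows of 4 and 3 other genes.

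Thiolase genes had a summit at 3 of 4. These were hadb-1 at 174, kat-1 at 96.6 and acaa-2 at 77.0, and kat-1, the 3-ketoacyl-CoA thiolase gene, had a CACGTG at its summit. The gene let-721, which encodes the oxidoreductase that passes electrons from acyl-CoA dehydrogenases to the respiratory chain, had a summit of 125. Peroxisomal genes, whose products shorten very long chains and make ascaroside pheromones, had one at 5 of 12 (41.7%), a share near the 37.8% of all protein-coding genes. The strongest were acox-1.6 at 259, dhs-28 at 126 and, at the same shared summit, acox-1.2 and acox-1.1 at 83.9.

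Genes of propionate breakdown had a summit at 9 of 10, and the gene without one was acdh-1. The strongest was alh-8 at 301, with replicate values of 152 and 151, which acts at the end of the shunt that acdh-1 opens. It was followed by hphd-1 at 207 (92.7 and 118) and hach-1 at 198 (84.1 and 113), both also of the shunt. The summits of alh-8, 402 bp upstream, and of hphd-1, in its own intron, each held CACGTG. The gene ech-6, which acts after acdh-1, had a summit of 34.0, near the threshold, with replicate values of 13.1 and 22.0.

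**Figure D3:**
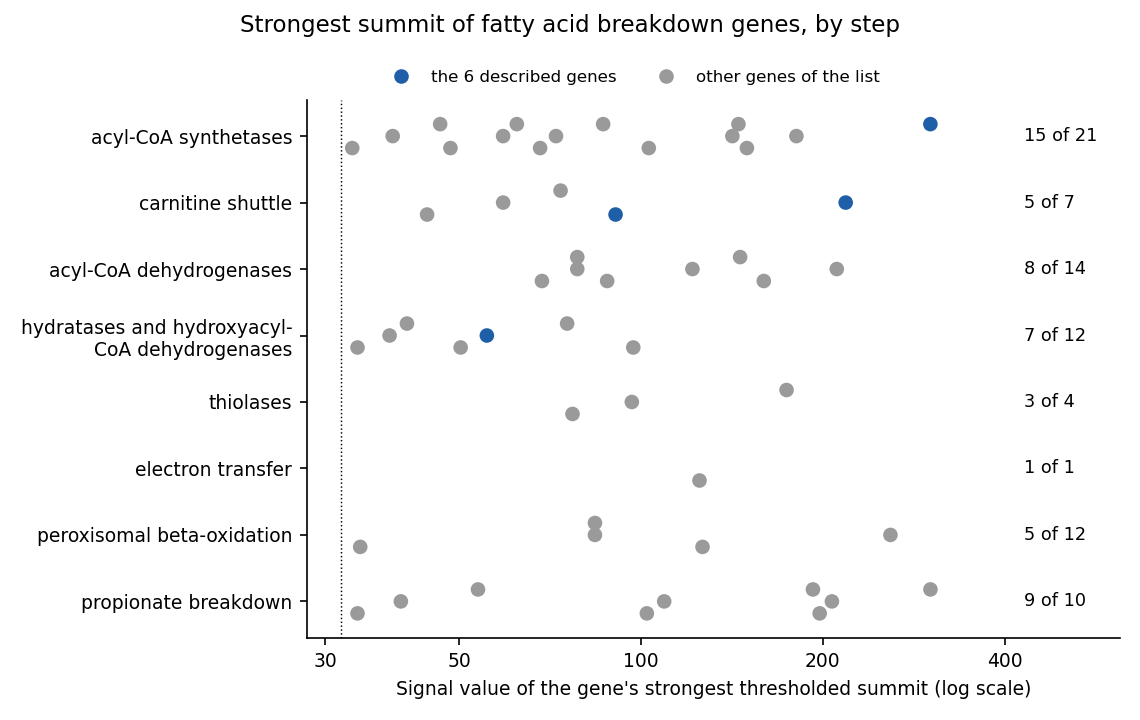
Signal value of the strongest thresholded summit of each listed gene (log axis), by step of fatty acid breakdown. Blue points are members of the 6 genes, grey points are other genes, the dotted line is the lowest thresholded signal of 31.9, and the number at the right counts genes with a summit. The point of acs-2, at 301, is the highest of the acyl-CoA synthetases, and no acyl-CoA dehydrogenase point is blue, since acdh-1 and acdh-2 had no thresholded summit.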

How the data were processed

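According to notes the authors deposited, peaks and background regions on ce11 were called with a control alignment, once in each replicate and once with the replicates pooled. The irreproducible discovery rate then gave 1 thresholded list from these 3. No source used here names the peak caller, the aligner or the cut-off. The signal value in the deposited lists is a score of unknown scale. Peaks were ranked within a list, and replicate values were averaged and compared across the 2 replicate lists as deposited, with no rescaling. Lists on ce10 were not used.

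Summits were joined to Ensembl annotation release 115 of WBcel235, which is ce11. A summit counted for every protein-coding gene that held it or lay up to 5 kb downstream of it. A replicate value is the highest signal among entries of that replicate's list that overlap the thresholded peak by at least 1 bp. For pooled entries below the threshold, the overlapping replicate entry with the nearest summit was used, leaving out entries that stand for a thresholded peak. Motifs were searched on both strands in 101 bp around the summit. The assignment was tested on simulated summits. Python 3.11.15 with pandas 2.3.3 and numpy 2.4.6 was used.

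All 6 members are named. In each list by step the 3 genes with the strongest summit are named, with neighbours that share a member summit and the genes next to a member in signal order. Other genes were named after their values were seen. They are those without a summit among the cpt and acdh genes, and ech-6. For a shared summit, acox-1.1 (same as acox-1.2), acdh-7 and acdh-10 were also named. The members and lists were chosen with earlier results of these data known. The lists hold 84 names. Of these, 6 are absent from the annotation's gene names, and 3 genes belong to 2 lists each.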

Additional observations from a re-analysis of the deposited data

How the results depend on the processing

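With the window shortened to 2 kb upstream the member summits fell from 8 to 4, and with 1 kb, or with the 3584 strongest thresholded peaks, to 3. The number of members with a summit was 4 with 2 kb (27.9% of all protein-coding genes) and 3 with 1 kb (23.1%), where cpt-1 was lost, and also 3 with the 3584 strongest (23.4%), where hacd-1 was lost. With 2 kb the strongest cpt-1 summit was the one of 35.5 in place of 218. When a summit counted only for the nearest 5′ end of a protein-coding gene, 7 member summits remained, without the farther one of hacd-1. From the strongest 7168 entries of replicate 2 alone, the member summits were 8, at 4 members, against 37.9% of all protein-coding genes. Replicate 1 alone gave 7, at 5 members, against 38.0%. There cpt-1 kept 2 summits and hacd-1 kept 1, and the fifth member was acdh-1, through the entry at mdt-18. The listed genes with a summit ranged from 37 to 53 of 78 over these settings, against 52. The 37 (47.4%) came with the 3584 strongest peaks, against 23.4% of all protein-coding genes. The 53 (67.9%) came with replicate 2 alone, against 37.9%. With the nearest 5′ end only there were 39 (50%), against 21.7%. CACGTG or CACATG was within 25 bp of 2 member summits (14.4% of all thresholded summits) and within 100 bp of 5 (34.1%), against 4 within 50 bp. All 16 replicate entries were matched by overlap, and also when a replicate summit within 100 bp of the thresholded one was asked for instead. No paired analysis was possible because the series has 1 group. Depth is unknown, so the weak sites could not be weighed by read number.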
